A study of Homo sapiens with 4 samples.

Results

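MMP7, PLAU, PLAUR, TIMP1 and TIMP2 are 5 genes of pericellular proteolysis, the breakdown of proteins at and just outside the cell surface. They were taken by symbol as a small gene group, 5 of the 18131 genes found in any of the 4 count tables, and all 5 were listed in every table. The group was chosen with earlier results of these data known. HCC1143 is an established cell line from a triple-negative breast carcinoma, and it was grown in RPMI1640 medium with serum. Cells were allowed to attach and were then given 1 nM paclitaxel, a microtubule-stabilising taxane, or its solvent DMSO. Single cells were captured on the 10x Chromium platform after 24 h or 72 h, with 1 library for each of the 4 groups: DMSO and paclitaxel at 24 h, and both again at 72 h. Where 4 values follow each other they are in that order. All groups therefore came from 1 cell line, and no comparison has a replicate.

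Matrix metalloproteinases are zinc enzymes that cut matrix and surface proteins. MMP7 (matrilysin) is a small secreted member of that family made largely by epithelial cells. PLAU encodes urokinase, a serine protease that turns plasminogen into plasmin, and PLAUR encodes the surface receptor that binds urokinase. TIMP1 and TIMP2 encode secreted inhibitors of metalloproteinases, and TIMP2 also takes part in the activation of pro-MMP2 by MMP14.

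In GENCODE release 29 on GRCh38 the 5 protein-coding genes lie on 5 chromosomes. MMP7 is at chr11:102520508-102530753 on the minus strand, and PLAU is at chr10:73909177-73917497 on the plus strand. PLAUR is at chr19:43646095-43670547 on the minus strand. TIMP1 is at chrX:47582313-47586789 on the plus strand, and TIMP2 is at chr17:78852977-78925387 on the minus strand. TIMP1 lies wholly inside SYN1, which runs on the opposite strand and had at most 18 UMIs in any library, and PLAU overlaps C10orf55, also opposite, with at most 23. TIMP2 overlaps CEP295NL on its own strand, which had at most 15. Whether the counting used strand is not stated. UMIs (unique molecular identifiers) each stand for 1 captured RNA molecule.

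The paclitaxel ratios of MMP7 and PLAUR changed in opposite directions between 24 h and 72 h, and both carry an AP-1 type motif before their RefSeq start, so these stretches are shown. RefSeq promoter windows (GRCh38.p14) were matched for 4 of the 5 genes, and the 250 bases before each start were searched on both strands. The AP-1 motif was spelled TGANTCA. The other motifs were the TATA box, spelled TATAAA, and NF-kB by its usual consensus. The last motif searched, the ETS-type site PEA3, was spelled AGGAAG. The MMP7 sequence covers chr11:102530754-102530997, minus strand, 244 bases that hold no annotated exon, and the PLAUR stretch covers chr19:43670339-43670365, minus strand. The PLAUR stretch lies inside the GENCODE gene, whose start is further upstream than the RefSeq one, and all 250 bases of its window are exonic there. Capitals mark the motif matches, and both PEA3 matches of MMP7 are on the strand opposite to the one printed.
MMP7: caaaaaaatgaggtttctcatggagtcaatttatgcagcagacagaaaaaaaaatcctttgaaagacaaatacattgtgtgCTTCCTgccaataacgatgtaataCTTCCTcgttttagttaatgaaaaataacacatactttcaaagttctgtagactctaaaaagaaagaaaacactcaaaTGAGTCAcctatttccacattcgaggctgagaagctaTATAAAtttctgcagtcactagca
PLAUR: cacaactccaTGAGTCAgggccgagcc

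The AP-1 match lay 67 to 61 bases before the RefSeq start of MMP7 and 186 to 180 bases before that of PLAUR. The TATA box of MMP7 lay 30 to 25 bases before its start. An AP-1 match was present in 6.57% of 35116 windows of the same length, a TATA box in 10.7%, PEA3 in 28.7% and NF-kB in 5.21%. PEA3 matches were also present in windows of PLAU, PLAUR and TIMP1. These matches are letters in a window, and no binding was measured.

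The libraries held 526 to 1102 barcodes, of which 520 to 1101 were kept (500 or more genes, and mitochondrial genes giving less than 20% of UMIs). Kept cells had medians of 54864 to 59670 UMIs, and the libraries summed to 34850724 to 72024235 UMIs, so a count of 0 would allow up to 0.0417 to 0.0861 per 1000000 UMIs (CPM). The DMSO 24 h library shared 4 barcodes with paclitaxel 24 h and 3 with DMSO 72 h. Cells with under 2% mitochondrial UMIs numbered 6, 6, 11 and 51 over the 4 libraries. All 6 epithelial markers were listed in every table, as were ESR1 at 0.31 to 0.66 and ERBB2 at 20.4 to 23.5 CPM. Of 6 fibroblast markers only COL1A1 was listed (10.0 to 13.9), and CSF1R and HBB were in no table. Of 4 endothelial markers PECAM1 was in no table, and the other 3 summed to 2.25, 6.02, 10.8 and 10.9, of which KDR made up 1.97, 5.46, 10.5 and 9.24. The 4 listed blood cell markers summed to 7.41 to 9.04 in the first 3 libraries and to 24.7 in paclitaxel 72 h, of which CD68 made up 19.6 and PTPRC 0.29. The part of such cells in the results was not tested.

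MMP7 had its larger paclitaxel ratio early. Its level was 122 CPM (95% Poisson interval 119 to 124) in DMSO and 392 (387 to 398) in paclitaxel at 24 h. At 72 h it was 233 (229 to 238) in DMSO and 479 (472 to 486) in paclitaxel. All intervals given here cover counting error only. The 4 levels did not overlap, and both DMSO libraries lay below both paclitaxel libraries. MMP7 was thus 3.23-fold higher with paclitaxel at 24 h (log2 ratio 1.69, interval 1.65 to 1.73) and 2.05-fold higher at 72 h (1.04, 1.00 to 1.07). At 24 h it ranked 16 of the 8096 genes averaging 10 CPM or more, and at 72 h 542 of 8306.

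The smaller ratio at 72 h went with a higher DMSO level. MMP7 was 1.92-fold higher in DMSO at 72 h than in DMSO at 24 h (log2 0.94, 0.90 to 0.98), while the paclitaxel libraries differed by 0.29 (0.26 to 0.32). The log2 ratio of paclitaxel over DMSO changed by -0.65 between 24 h and 72 h (-0.70 to -0.60). Against the DMSO 24 h library, MMP7 in paclitaxel at 72 h was 3.93-fold higher.

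PLAUR, the urokinase receptor, had its larger paclitaxel ratio late. It stood at 90.8 CPM (88.6 to 93.1) in DMSO and 128 (125 to 131) in paclitaxel at 24 h. At 72 h it stood at 71.5 (69.2 to 73.9) in DMSO and 279 (274 to 285) in paclitaxel. The paclitaxel 72 h library was far above the other 3, and the lowest level was in DMSO at 72 h. The ratio of paclitaxel over DMSO was 1.41-fold at 24 h (log2 0.49, 0.44 to 0.54) and 3.90-fold at 72 h (1.97, 1.91 to 2.02), which ranked 63 of 8306 genes. The log2 ratio changed by 1.47 between the times (1.40 to 1.55), the opposite direction to MMP7.

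Paclitaxel over DMSO had a median log2 ratio over all genes with at least 10 CPM of -0.14 at 24 h and of 0.28 at 72 h. Ribosomal protein genes gave a median of 27.0%, 33.1%, 40.5% and 27.4% of a cell's UMIs, and a larger share lowers the CPM of other genes. On a total without mitochondrial and ribosomal genes, MMP7 had log2 ratios of 1.79 and 0.74 and PLAUR of 0.59 and 1.67. The part of the ribosomal share in the ratios of all genes was not tested. Minus the median of genes with at least 50 CPM, MMP7 stood at 1.83 and 0.72 and PLAUR at 0.63 and 1.64. The order of the 2 times was kept for both genes on that scale. Without cells under 2% mitochondrial UMIs the 72 h log2 ratio was 1.06 for MMP7 and 1.94 for PLAUR. With the DMSO 24 h library as the control at 72 h, MMP7 had a log2 ratio of 1.98 and PLAUR of 1.62, so on that control MMP7 was not lower at 72 h than its 24 h ratio of 1.69.

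**Figure D1:**
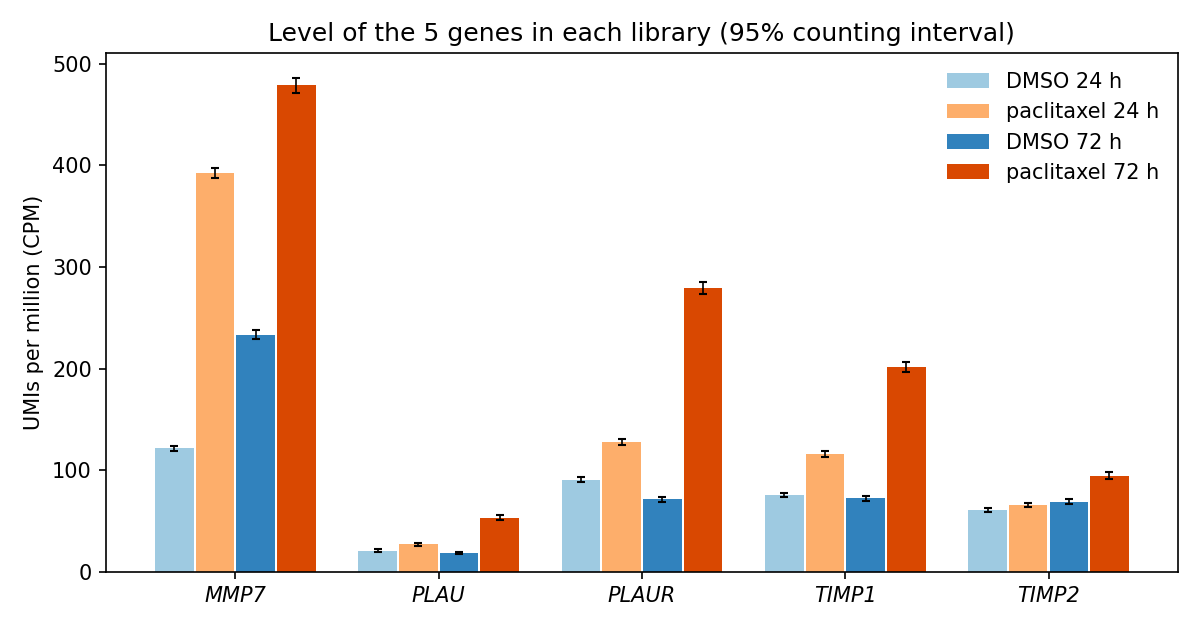
Levels of the 5 genes in CPM (vertical axis, linear, from 0) in the 4 libraries (bar colours), with 95% Poisson intervals as error bars. MMP7 was at 392 and 479 in the paclitaxel libraries against 122 and 233 in DMSO, and PLAUR reached 279 in paclitaxel at 72 h against 71.5 to 128 elsewhere.

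PLAU, which encodes urokinase itself, followed the late order of its receptor. Its levels were 21.0 CPM in DMSO 24 h, 27.2 in paclitaxel 24 h, 18.5 in DMSO 72 h and 53.1 in paclitaxel 72 h. The interval of the paclitaxel 72 h library (50.7 to 55.6) lay above those of the other 3. The log2 ratio of paclitaxel over DMSO was 0.37 (0.27 to 0.47) at 24 h and 1.52 (1.41 to 1.64) at 72 h, a change of 1.15 (1.00 to 1.31).

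TIMP1, a broad metalloproteinase inhibitor, was at 75.8 CPM in DMSO 24 h, 116 in paclitaxel 24 h, 72.4 in DMSO 72 h and 202 in paclitaxel 72 h. The DMSO libraries were close, at 73.8 to 77.9 and 70.0 to 74.8, and their intervals overlapped. Its log2 ratio was 0.61 (0.56 to 0.67) at 24 h and 1.48 (1.42 to 1.54) at 72 h.

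TIMP2 had the narrowest range of the 5 genes. It was at 61.1 CPM in DMSO 24 h, 65.9 in paclitaxel 24 h, 68.9 in DMSO 72 h and 94.7 in paclitaxel 72 h. The intervals of paclitaxel 24 h (63.8 to 68.1) and DMSO 72 h (66.6 to 71.3) overlapped. Its log2 ratio was 0.11 (0.05 to 0.17) at 24 h and 0.46 (0.39 to 0.53) at 72 h. Minus the median of genes with at least 50 CPM it was 0.25 and 0.14, so on that scale the 72 h value was the smaller.

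**Figure D2:**
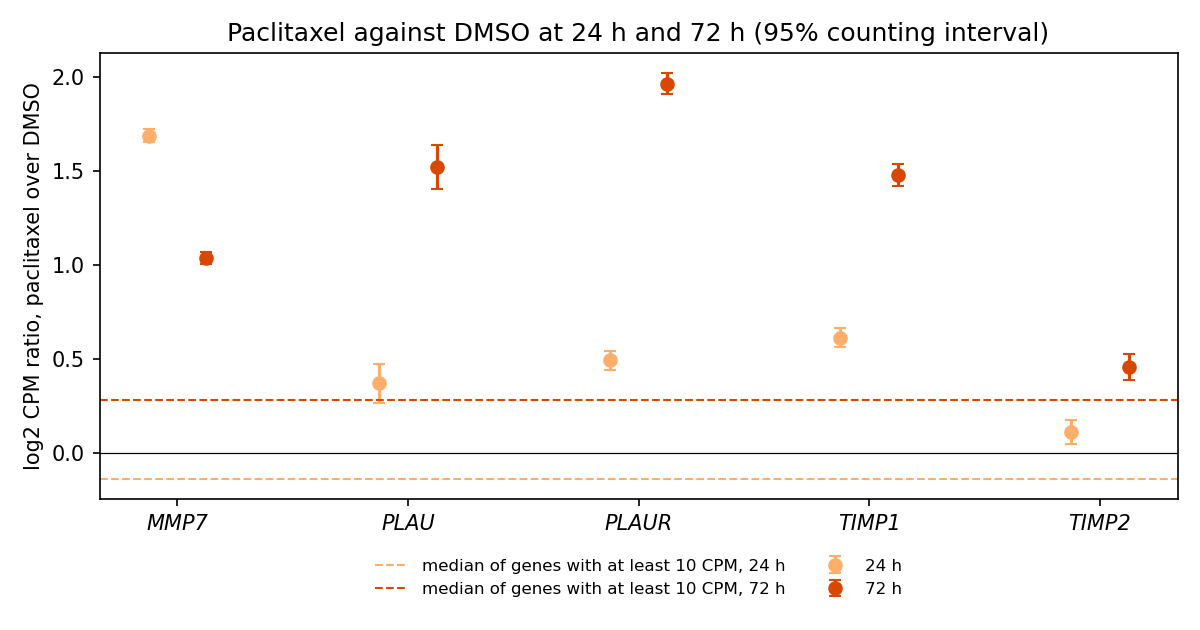
Log2 CPM ratio of paclitaxel over DMSO (vertical axis) for each gene at 24 h and 72 h, with 95% counting intervals as error bars; dashed lines are the medians of genes with at least 10 CPM, -0.14 and 0.28. MMP7 went from 1.69 to 1.04 between the times, and PLAUR went from 0.49 to 1.97.

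Counted as a group, 2 of the 5 genes (MMP7 and TIMP1) exceeded their DMSO level by 1.5-fold or more at 24 h, as did 4% of 8096 genes, and none was lower by that much, against 3.62% of genes. At 72 h 4 of 5 (all but TIMP2) were higher, against 25.2% of 8306 genes, and none was lower, against 2.13%. After subtraction of the median, 9.94% of genes were higher and 9.49% lower at 72 h, and the same 4 genes stayed above 1.5-fold. TIMP1 at 24 h was just above the limit, at 1.53-fold, and PLAUR at 24 h just below it, at 1.41-fold. The 5 genes were chosen with earlier results of these data known. Their counts beside the shares of all genes are therefore a description and not a test of the group.

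Between the DMSO libraries, only MMP7 of the 5 was at least 1.5-fold higher at 72 h than at 24 h, where 6.43% of genes were higher and 25.1% lower. PLAU had a log2 ratio of -0.19, PLAUR of -0.34, TIMP1 of -0.07 and TIMP2 of 0.18 there. The median log2 ratio there was -0.29 over genes with at least 10 CPM and -0.41 over genes with at least 50 CPM. All 5 genes lay above the second median, and all but PLAUR above the first. The negative values are thus on the CPM scale only, as is the count of genes past 1.5-fold. Paclitaxel 72 h against DMSO 24 h placed all 5 above 1.5-fold, against 16.2% of genes higher and 11.8% lower. That comparison shares its libraries with the others and differs in both drug and time.

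The cell by cell data describe how the UMIs of each gene were spread over cells. The share of cells with a UMI also rises with the mean level and with depth. That share alone therefore cannot tell more expressing cells from more RNA per cell. Each cell was thinned at random to 1 fixed number of UMIs, the same in all libraries, which kept 1067, 733, 760 and 468 cells. Cells were not clustered and no cell type that lacks these genes was identified, so the share that free RNA alone would give could not be measured.

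MMP7 had a UMI in 69.0% of thinned cells in DMSO 24 h (exact binomial 95% interval 66.1 to 71.7), 92.1% in paclitaxel 24 h, 88.8% in DMSO 72 h and 90.6% in paclitaxel 72 h. The last 3 shares were close. Without thinning they were 86.9%, 97.6%, 96.4% and 94.8%. The upper part of the distribution differed more. More than 10 MMP7 UMIs, the 95th percentile of DMSO 24 h, were found in 4.87% of cells there, 30.2% in paclitaxel 24 h, 13.3% in DMSO 72 h and 33.5% in paclitaxel 72 h. The median cell had 1, 6, 4 and 5 MMP7 UMIs in that order of libraries, and the 90th percentile was 7, 20, 12 and 28.

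MMP7 in paclitaxel at 72 h was therefore spread over cells more unevenly than in paclitaxel at 24 h, with a lower median and a higher upper tail. Its Fano factor (variance over mean) was 7.28, 18.1, 7.21 and 25.5 in the same order. That factor tends to rise with the mean, which was 2.72, 9.38, 5.19 and 11.5 UMIs. The standard deviation over the mean was 1.64, 1.39, 1.18 and 1.48, so on that measure DMSO 24 h was the most uneven. In paclitaxel 24 h MMP7 correlated across cells with the share of ribosomal protein UMIs (r 0.31 over 733 cells), where PLAUR had r of -0.27; the part of that share in the ratios was not tested. The 10% of cells with the most MMP7 held 47.0%, 39.8%, 35.5% and 45.4% of its UMIs.

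PLAUR had a UMI in 74.9%, 79.7%, 67.9% and 92.5% of thinned cells across the 4 libraries (92.5%: 89.8 to 94.7). Without thinning the shares were 93.7%, 94.2%, 87.9% and 95%. More than 6 PLAUR UMIs were found in 3.47%, 8.87%, 1.45% and 31.4% of cells. The median cell had 1, 2, 1 and 4 UMIs, so both the typical cell and the upper tail were higher in paclitaxel at 72 h.

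**Figure D3:**
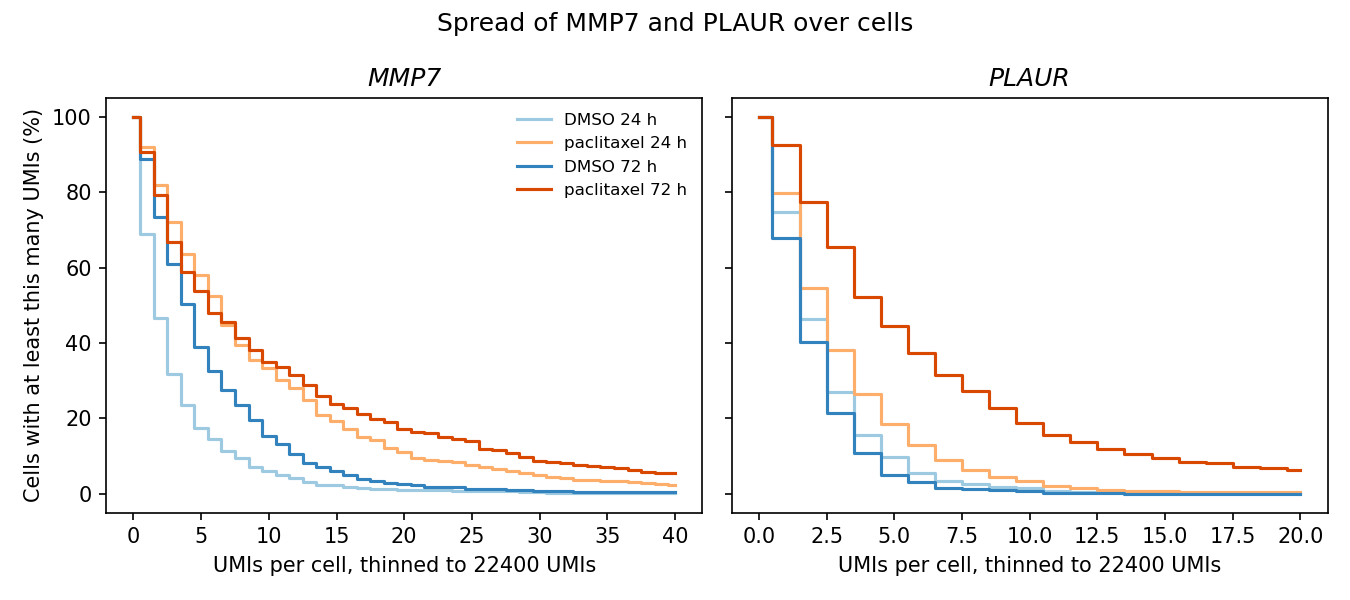
Share of cells (vertical axis, percent) with at least a given number of MMP7 (left) or PLAUR (right) UMIs (horizontal axis) after thinning every cell to the same number of UMIs, 1 line per library. Both paclitaxel lines stand above the DMSO lines for MMP7 beyond a few UMIs, whereas for PLAUR only the paclitaxel 72 h line stands clearly apart.

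PLAU was sparse. A UMI was found in 32.9%, 34.8%, 28.3% and 43.4% of thinned cells in the same order, and the median cell had 0 in every library. Without thinning the shares were 62.2%, 59.8%, 50.3% and 60.6%, with no excess in paclitaxel 72 h over DMSO 24 h. In paclitaxel 72 h the 10% of cells with the most PLAU held 59.8% of its UMIs, against 48.7% to 54.0% in the other libraries.

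TIMP1 had a UMI in 67.9%, 81.7%, 69.9% and 81.4% of thinned cells, and more than 5 in 3.37%, 10.1%, 2.63% and 25.4%. At that depth the 2 paclitaxel libraries thus had nearly the same share of cells with TIMP1, and the cells with many UMIs set 72 h apart. TIMP2 had a UMI in 73.7%, 73.5%, 75.8% and 76.9%, with overlapping intervals, and its Fano factor was 1.24 to 2.26. Without thinning the shares were 87.4%, 92.7%, 90.3% and 91.0% for TIMP1 and 92.6%, 90.2%, 92.8% and 86.7% for TIMP2. Thinned to 10000 UMIs, a depth that all kept cells reached, the shares of TIMP1 were 42.6%, 59.0%, 46.7% and 65.4%. Those of TIMP2 were 44.9%, 42.8%, 50.2% and 56.5%, so the shares were less alike at that lower depth.

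Cells called G1 made up 16.4%, 39.7%, 55.3% and 67.1% of thinned cells. The cycle genes behind those calls did not follow the same order throughout. The 42 S phase genes found summed to 2195, 1712, 1217 and 1187 CPM, and the 54 G2/M genes to 5669, 4656, 2996 and 3301, so the G2/M sum was higher in paclitaxel than in DMSO at 72 h. Within the G2/M list at 72 h MKI67 had a log2 ratio of -0.70 and CKS2 of 0.94. The phase calls therefore serve here only to split the cells. Within G1-called cells weighted alike, the log2 ratio of MMP7 was 1.23 at 24 h and 1.45 at 72 h, so its order of the 2 times turned. Within G2/M-called cells it was 1.73 and 0.54, and within S-called cells 2.23 and 0.69, the latter over only 26 paclitaxel 72 h cells. Summing all UMIs of G1-called cells gave 1.23 and 1.30.

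PLAUR kept its order in every phase. Its log2 ratio was 0.32 and 2.33 at 24 h and 72 h in G1-called cells, 0.39 and 1.38 in S-called cells, and 0.40 and 1.47 in G2/M-called cells. TIMP1 had 1.01 and 1.41 in G1-called cells and 0.49 and 1.42 in G2/M-called cells. PLAU had 0.37 and 1.56 in G1-called cells and 0.32 and 1.44 in G2/M-called cells. TIMP2 had 0.26 and 0.42 in G1-called cells and 0.08 and 0.42 in S-called cells, and in G2/M-called cells it was -0.07 at 24 h and 0.57 at 72 h, so its small 24 h ratio turned in that phase. Phase calls read the same thinned counts, and free RNA in them was not tested.

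Across all cells the r between these genes was small, which for sparse counts need not mean that they are unrelated. Pearson r of log thinned UMIs across cells lay between -0.09 and 0.17 for all 10 pairs in the 4 libraries, over 468 to 1067 cells that share a library and its depth. PLAU and PLAUR, a ligand and its receptor, had r of 0.079, 0.104, 0.122 and 0.101. For PLAU with genes on other chromosomes (at least 20 CPM in every library), the 95th percentile of r was 0.062, 0.097, 0.093 and 0.110. PLAUR thus lay above that percentile in every library but paclitaxel 72 h, though r was low for PLAU with most genes. In paclitaxel at 72 h 157 of 468 cells had more than 10 MMP7 UMIs and 147 had more than 6 PLAUR UMIs. Of these, 55 had both, which is 35% of the MMP7-high and 37.4% of the PLAUR-high cells, against 31.4% PLAUR-high and 33.5% MMP7-high among all cells. Sharing of high cells varied between libraries and pairs. In DMSO 24 h 12 of 37 PLAUR-high cells (32.4%) and 7 of 36 TIMP1-high cells (19.4%) were MMP7-high, against 4.87% of all cells. In paclitaxel 72 h 23 of 56 TIMP2-high cells (41.1%) were PLAUR-high, against 31.4%, and in paclitaxel 24 h 20 of 65 PLAUR-high cells (30.8%) were MMP7-high, against 30.2%. Other pairs lay below the share of all cells. In DMSO 24 h 0 of 25 PLAU-high cells were MMP7-high, and in paclitaxel 24 h 9 of 38 TIMP2-high cells (23.7%) were. These are small counts from single libraries.

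Likeness was measured among 4668 genes with at least 20 CPM in every library. Across cells, MMP7 was most like KRT6B, a stress-inducible keratin (mean r over 4 libraries 0.37, range 0.34 to 0.42), then SAT1, TM4SF1, NOTCH3 and FXYD3 (0.26 to 0.28). PLAUR was like EMP1 (0.31), S100A11, MAL2 and PVRL2. PLAU had EMP1 in common with its receptor, beside CXCL1, KLF6 and ADAM9, all at 0.15 or under. TIMP1 was most like NDUFB11 (0.27), TMSB4X, S100A6, LCN2 and PRDX4, and TIMP2 was most like GPRC5A (0.18), PSAP, TMSB10, KLK5 and SEPT9. NDUFB11, TMSB4X and PRDX4 lie on X like TIMP1, KLF6 on chromosome 10 like PLAU, and SEPT9 on chromosome 17 like TIMP2. Each had its highest r in paclitaxel 72 h. The range was 0.13 to 0.50 for NDUFB11, 0.06 to 0.48 for TMSB4X and 0.06 to 0.41 for PRDX4. It was 0.03 to 0.29 for KLF6 and 0.10 to 0.29 for SEPT9.

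Over the 4 library levels alone, PLAUR was closest to MAP1LC3B, an autophagy gene, then OSER1, KRT16 and LCN2. TIMP1 was close to HLA-B and HLA-C, which encode class I antigen presentation molecules, and to LCN2 and NFKBIA. MMP7 was closest to C15orf48, OVOS2, PTOV1 and CTGF. PLAU was close to RNF114, CA2, MYEOV and INHBA, and TIMP2 to TBC1D17, IL13RA1, TRIM29, IGF2BP2 and ANKRD12. These orders rest on 4 points each.

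TIMP1 varied together with other genes of its chromosome in paclitaxel at 72 h, a pattern noticed after its values were seen. In that library all 20 genes with the highest r with TIMP1 were on X, which held 2.49% of the genes compared. The median r was 0.19 over 112 X genes and 0.00 over 4385 others, and 84 X genes (75%) lay above the 95th percentile of the others. NDUFB11 reached 0.50. In DMSO 24 h, paclitaxel 24 h and DMSO 72 h, 3, 3 and 0 of the top 20 genes were on X, and 9.82%, 18.8% and 6.25% of X genes lay above that percentile.

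The share of a cell's UMIs that came from X genes also spread more widely there. Its 90th percentile was 4.45 times its 10th in paclitaxel 72 h (0.56% to 2.49%), against 1.38, 1.66 and 1.52 times in the other libraries. TIMP1 correlated with that share at r of 0.51 across 468 cells, against 0.18, 0.22 and 0.08. MMP7, PLAU, PLAUR and TIMP2 had 8, 8, 10 and 7 genes of their own chromosome among their top 20 in paclitaxel 72 h, where those chromosomes held 5.43%, 3.89%, 7.49% and 7.27% of the genes compared. Of the genes on the same chromosome, 29.9%, 26.3%, 27.9% and 8.26% lay above the 95th percentile of the others, so on this measure TIMP2 was well below the other 3.

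Ratios of library sums average over cells that differ in their share of X genes. X genes had a median log2 ratio of 0.22 at 72 h, near the 0.28 of all genes, and none of 189 X genes averaging 10 CPM or more exceeded TIMP1. In cells whose X share lay between the 10th and 90th percentiles of DMSO 72 h (155 of 520 with paclitaxel), the TIMP1 ratio at 72 h was 1.43. With the same restriction on their own chromosomes, the 72 h log2 ratio was 0.86 for MMP7, 0.98 for PLAU, 1.57 for PLAUR and 0.32 for TIMP2.

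**Figure D4:**
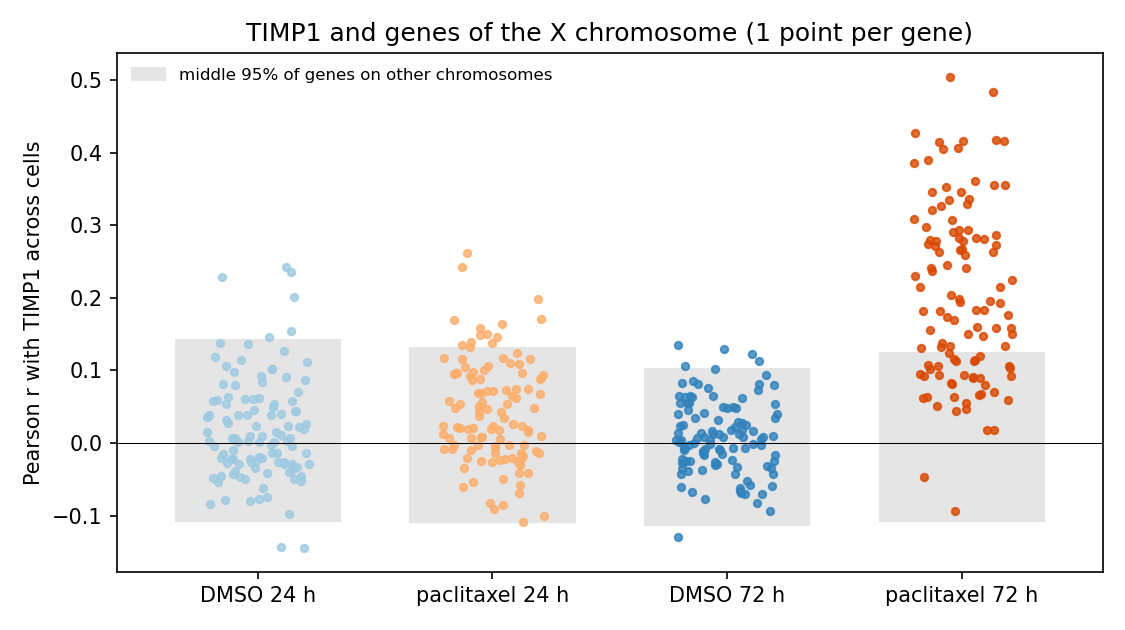
Pearson r with TIMP1 across cells (vertical axis) for the 112 compared genes of the X chromosome, 1 point per gene, in each of the 4 libraries (horizontal axis); grey boxes span the middle 95% of genes on other chromosomes. In paclitaxel 72 h most X genes lie above the box, with a median of 0.19, and in the other libraries most lie inside it.

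The wider protease network was read from 8 lists of 117 genes beside the 5. Of the 58 and 61 averaging 10 CPM or more, 5 were higher and 0 lower at 24 h (8.62% higher, median log2 ratio -0.00), and 24 were higher and 2 lower at 72 h (39.3% higher, median 0.44). Of all genes, 4% were higher and 3.62% lower at 24 h, with a median of -0.14, and 25.2% were higher and 2.13% lower at 72 h, with a median of 0.28. The list counts that follow are to be read against these shares, and each rests on 17 genes or fewer. The lists too were chosen with earlier results of these data known.

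Among the plasminogen activators and inhibitors, SERPINE2, which encodes protease nexin-1, was the only other gene measured, and its log2 ratio was 1.74 at 72 h. PLAT, the tissue-type activator, was at 5.03, 6.32, 3.6 and 11.1 CPM. PLG, which encodes plasminogen itself, was in no table.

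Of the surface partners of plasminogen and of the urokinase receptor, 1 of 10 was higher at 24 h (MRC2, a collagen receptor that associates with the urokinase receptor, 0.80) and 4 of 11 at 72 h, against 4% and 25.2% of all genes. Those 4 were the plasminogen-binding ENO1 (0.77), PLGRKT (0.70), ANXA2 (0.70) and its partner S100A10 (0.64), the last named beyond the rule to complete the 4.

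Serine proteases and their inhibitors at the membrane were higher in 3 of 10 cases at 24 h and 6 of 12 at 72 h, against 4% and 25.2% of all genes. SLPI, a secreted inhibitor of leukocyte elastase, had a log2 ratio of 1.18 at 24 h. Its levels were 60.0, 136, 147 and 272 CPM. It was thus higher with paclitaxel at 72 h too, and higher in DMSO at 72 h than in DMSO at 24 h. PRSS22 (1.64), PRSS23 (1.61) and PRSS8 (1.04) were higher at 72 h. ST14, which encodes matriptase, was at 64.4, 55.4, 55.2 and 59.2 CPM.

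Among cathepsins and cystatins 1 of 11 was higher at 24 h, namely CTSF with a log2 ratio of 2.0, and 4 of 11 at 72 h, led by CTSL (1.60) and CTSC (1.06), against 4% and 25.2% of all genes. Like MMP7, CTSF was also higher in DMSO at 72 h (27.6 CPM) than in DMSO at 24 h (7.71). ADAM and ADAMTS proteases were higher in 0 of 7 and 3 of 7 cases, with the same shares of all genes for comparison (ADAMTS1 0.85, ADAM19 0.68 and ADAM17 0.60 at 72 h), and ADAMTS9 stood at 0.58 at 24 h, just under the limit.

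Matrix and surface substrates were higher in 0 of 17 cases at 24 h and in 5 of 17 at 72 h, with 2 lower. The 72 h share of higher genes was near the 25.2% of all genes, of which 2.13% were lower. LAMA3, a laminin chain, was highest at 72 h (1.82), and the syndecan SDC4 (1.13) and EPCAM (1.05) were also higher. BSG, which encodes the metalloproteinase inducer EMMPRIN, had a log2 ratio of -0.25 at 24 h and 0.92 at 72 h, and TIMP3 was in no table. Epithelial markers moved with these lists, with 1 of 6 higher at 24 h (4% of all genes) and 4 of 6 at 72 h (25.2%), and their part in the list counts was not tested.

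**Figure D5:**
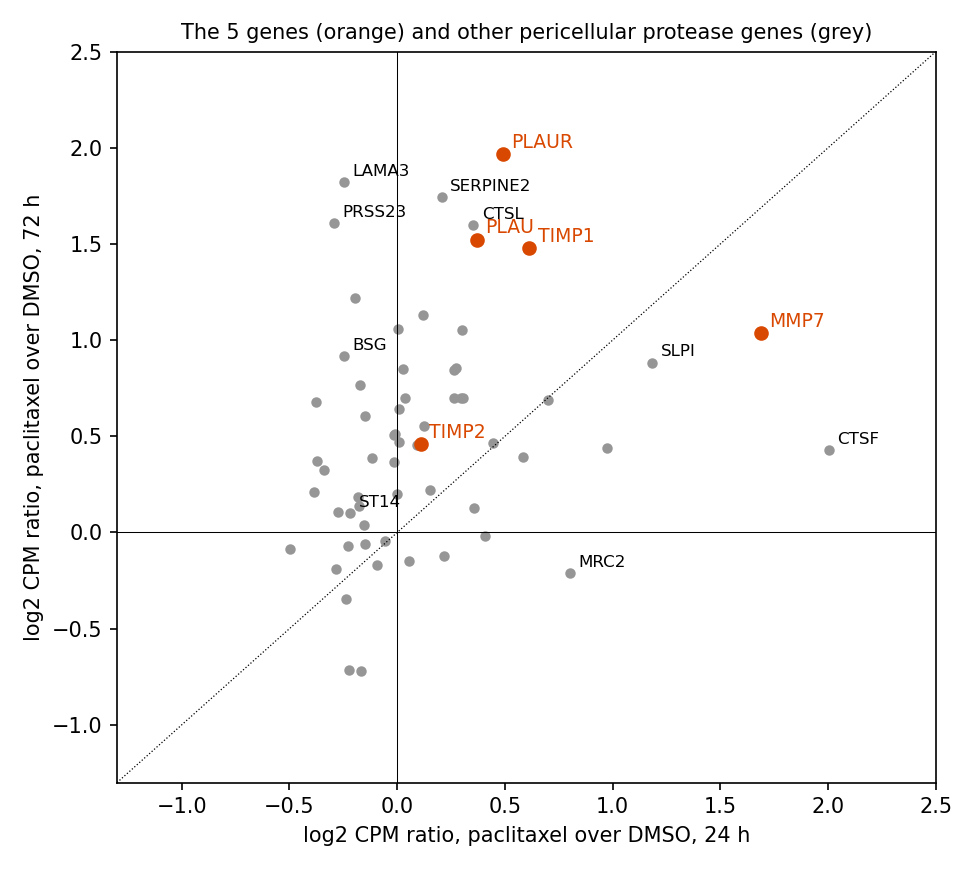
Log2 CPM ratio of paclitaxel over DMSO at 24 h (horizontal axis) and 72 h (vertical axis) for the 5 genes (orange) and 57 other genes of the protease lists measured at both times (grey); the dotted line marks equal ratios. PLAUR, PLAU, TIMP1, SERPINE2 and LAMA3 lie above the line, and MMP7, CTSF and MRC2 below it.

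Among the other matrix metalloproteinases only MMP14, which encodes a membrane-bound collagenase, reached a mean of 10 CPM, at 14.8, 14.6, 15.6 and 22.1 CPM (log2 -0.01 at 24 h and 0.51 at 72 h). MMP1, MMP3, MMP10 and MMP13 were listed only in the paclitaxel 72 h table, at 4.65, 3.84, 0.60 and 2.04 CPM. They were singled out after their values were seen. No gene listed in a table had UMIs in fewer than 1% of its cells, and the selection rule is not stated, so absence from the others is not taken as a measured 0 and no fold is given. All 4 lie on chromosome 11 within 239.8 to 412 kb of MMP7.

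These collagenases and stromelysins came from few cells. MMP1 had 162 UMIs in 26 of 520 cells (5%, 3.29 to 7.24), and 1 cell held 44.4% of them. MMP3 had 134 UMIs in 18 cells, and 114 of those were in 1 cell. MMP13 had 71 UMIs in 18 cells and MMP10 had 21 in 10 cells. At least 1 of the 4 was found in 60 cells (11.5%). MMP7 stood at 418 CPM in those cells and 488 in the rest, and PLAUR at 340 and 270.1. Those 60 cells were also deeper, with a median of 63020.5 UMIs against 55924.5 in the rest. The part of depth in this split was not tested. In the 8 cells with at least 2 of the 4 genes MMP7 stood at 699 CPM and PLAUR at 487.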

How the data were processed

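The authors deposited 1 table of raw UMI counts per gene symbol and cell barcode for each library; Cell Ranger 2.0 and GRCh38 are named per the submitters' processing notes, and the cell selection before deposit is not given in the sources. In each table, no gene listed had UMIs in fewer than 1% of the cells. Barcodes with at least 500 genes and under 20% mitochondrial UMIs were kept (Python 3.11.15, numpy 2.4.6, scipy 1.17.1), UMIs were summed per library and scaled to 1000000. Ratios carry exact Clopper-Pearson intervals for 2 Poisson counts, which were checked on simulated data. Genes averaging 10 CPM or more that differed by 1.5-fold were counted as higher or lower. Phases were called with scanpy 1.11.5 in thinned cells, and TMM factors came from edgeR 4.0.16. No doublet caller was run; an alternative left out the 5% of cells with the most UMIs. With 1 library per group no test was possible and no p-value is given.

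The members and lists were chosen with earlier results of these data known. Named were the 5 genes, up to 4 genes per list with a mean of at least 10 CPM and the largest absolute ratio, PLAT, MMP14, TIMP3 and ST14, and the 5 most alike genes by each of 2 measures; some genes that this rule names are not reported here.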

Additional observations from a re-analysis of the deposited data

Results flagged for a closer look

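Checked here were the 5 genes, the protease list genes named above by the rule for their ratios, and PLAT, MMP14 and ST14. Other genes named above, such as those named for likeness, were not checked. For 8 of the checked genes, the paclitaxel library lay on opposite sides of its DMSO library at 24 h and 72 h. Both counting intervals of each excluded equality. With 1 library per group, the difference between the times was not tested. The share of all genes that would pass the same rule was not measured. The counts here are therefore a description and not a result about these genes. The log2 ratio at 72 h minus that at 24 h was 0.76 for ADAM17, 1.05 for ADAM19, 1.16 for BSG, 0.94 for ENO1, 2.07 for LAMA3, 1.90 for PRSS23 and 0.32 for ST14, all lower at 24 h and higher at 72 h. MRC2 went the other way, with a difference of -1.01. Over all genes with at least 10 CPM the median log2 ratio went from -0.14 to 0.28, the same direction as the 7 genes with a positive difference. Minus the median of genes with at least 50 CPM, 6 of the 8 genes still lay on opposite sides with intervals that exclude equality. ST14 did not, at -0.08 and -0.22, nor did ADAM17, at -0.01 and 0.28. None of MMP7, PLAU, PLAUR, TIMP1 and TIMP2 was among them.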

How the results depend on the processing

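No paired analysis was possible because each group had 1 library, and for the same reason no replicate could be left out. The 5 genes were higher with paclitaxel at both times under all 12 alternatives at 24 h and 13 at 72 h, of which 2, chosen after seeing the data, left out shared barcodes or kept cells with a usual share of the gene's own chromosome; within G2/M-called cells, which were not among the alternatives, TIMP2 at 24 h was -0.07. For MMP7 at 24 h (1.69) the log2 ratio was 1.80 without the 5% of cells with the most UMIs, 1.23 in G1-called cells, 1.88 in cells with 30000 to 100000 UMIs, 1.83 minus the median of genes with at least 50 CPM, 1.78 with TMM factors, 1.79 on a total without mitochondrial and ribosomal genes and 1.75 with every cell weighted alike. For MMP7 at 72 h (1.04) it was 1.30 in G1-called cells, 1.08 in cells with 30000 to 100000 UMIs, 0.72 minus the median, 0.75 with TMM factors, 0.74 without mitochondrial and ribosomal genes, 1.12 with cells weighted alike, 1.98 with DMSO 24 h as the control and 0.86 in cells with a usual chromosome share. For PLAUR at 24 h (0.49) it was 0.34 in G1-called cells, 0.63 minus the median, 0.59 with TMM factors, 0.59 without mitochondrial and ribosomal genes and 0.70 with a usual chromosome share; 4 of 12 alternatives placed it at or above 1.5-fold. For PLAUR at 72 h (1.97) it was 2.20 in G1-called cells, 1.64 minus the median, 1.68 with TMM factors, 1.67 without mitochondrial and ribosomal genes, 1.62 with DMSO 24 h as the control and 1.57 with a usual chromosome share. The cause of these shifts was not tested. With a limit of 2-fold, 1 of the 5 genes in place of 2 was higher at 24 h. Shares of cells moved with the thinning depth for all 5 genes. Counting intervals do not cover variation between cultures.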
